A study of Homo sapiens with 19 samples.

Results

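The genes described here are 9 genes known from amyotrophic lateral sclerosis (ALS) and frontotemporal dementia (FTD), namely TARDBP, SOD1, C9orf72, VCP, OPTN, TBK1, STMN2, MATR3 and GRN. They were listed by gene name, with earlier results of these data known, and matched to the tables through their GENCODE gene IDs. They take 10 of the 19942 gene rows in the eCLIP and TPM tables, because MATR3 has 2 gene IDs, and 231 of the 256980 transcripts in the rRNA-depleted table.

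ALS is a disease of motor neurons and FTD one of the frontal and temporal cortex, and both can arise from mutations in the same genes. Several of the proteins bind RNA or clear protein aggregates, and stress granules (SGs), the cytoplasmic assemblies of RNA and protein built around G3BP1 and G3BP2, have been discussed as places where such aggregates may begin. TARDBP and MATR3 encode nuclear RNA-binding proteins. C9orf72, OPTN, TBK1 and VCP act in autophagy and in the clearance of ubiquitinated proteins, GRN encodes the lysosomal and secreted protein progranulin, SOD1 detoxifies superoxide, and STMN2 is a neuronal regulator of microtubules whose splicing depends on the TARDBP protein.

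The study asked which RNAs G3BP1 and G3BP2 bind in SH-SY5Y, a human neuroblastoma line, and how stress changes this. Of its 19 samples, 15 had a column here, and the 4 size-matched inputs were not analysed here. The eCLIP libraries comprised untreated and sodium arsenite (AS)-treated cells, each precipitated for G3BP1 or G3BP2 in 2 replicates, in which UV light had crosslinked RNA to the protein. The poly(A) RNA-seq libraries comprised cells given siCtrl, siG3BP1 or siG3BP2, and a lysate (Total) with the SG cores (SG) isolated from AS-treated cells with an antibody against G3BP1, at 1 library each. The rRNA-depleted RNA-seq comprised 1 library of untreated cells and 1 of cells given 500 μM AS for 1 h. For all other samples, those named as controls included, GEO's treatment field gives 50 mM AS for 1 h, whereas the study's methods give 500 μM AS for 1 h and describe the knockdown without AS, so the labels and the methods conflict. All samples share 1 cell line, and p-values for eCLIP measure the spread between libraries, which may be technical.

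The libraries carried the genes that mark the line. In siCtrl, 10 of 11 neuroblastoma and sympathetic markers were above 1 TPM, led by HAND2 at 874 TPM and including the member STMN2, and over the 5 poly(A) libraries their summed level lay between 3359 and 6517 TPM. Of the markers of other cells, 4 of 5 fibroblast and mesenchymal genes passed 1 TPM, led by COL1A1 at 12.6 TPM, and 1 of 4 microglia and blood genes, CD68 at 2.75 TPM, while GFAP, AQP4, PTPRC, CX3CR1 and AIF1 were listed at 0. The summed fibroblast list lay between 15.1 and 69.6 TPM, and the part of such cells in the results was not tested. The 2 siRNA targets were lower in their own knockdown. G3BP1 was 18.7 TPM in siCtrl, 6.0 TPM after siG3BP1 and 16.5 TPM after siG3BP2. G3BP2 was 38.1, 39.4 and 11.4 TPM in the same order.

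MATR3 stands in 2 rows of each table because GENCODE lists 2 overlapping genes under that name on chromosome 5. ENSG00000015479 runs from 139293674 to 139331677 and ENSG00000280987 from 139273752 to 139331671, both on the plus strand of GRCh38. Their canonical transcripts, those that Ensembl marks as representative of a gene, share 4997 exonic bases, which is 98.6% of the first and 90.6% of the second. Reads from these bases cannot be assigned to either ID by sequence, so each row is given by its ID and their split is uncertain.

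The members differ in the length of their canonical transcripts. SOD1 (ENSG00000142168, chromosome 21, 31659666 to 31668931, plus strand) has the shortest, at 895 nt with a 3′UTR of 356 nt. STMN2 (ENSG00000104435, chromosome 8, 79611117 to 79666158, plus strand) has 1903 nt and GRN (ENSG00000030582, chromosome 17, 44345246 to 44353106, plus strand) 2130 nt, of which 1779 nt are coding. TBK1 (ENSG00000183735, chromosome 12, 64452090 to 64502114, plus strand) has 3022 nt and C9orf72 (ENSG00000147894, chromosome 9, 27535640 to 27573866, minus strand) 3231 nt. OPTN (ENSG00000123240, chromosome 10, 13099449 to 13138308, plus strand) has 3479 nt and VCP (ENSG00000165280, chromosome 9, 35053928 to 35072668, minus strand) 3746 nt. TARDBP (ENSG00000120948, chromosome 1, 11012344 to 11030528, plus strand) has 4185 nt, of which 2841 nt are 3′UTR. The MATR3 transcripts are the longest, with 5069 and 5513 nt. The median over 19892 genes was 2891 nt.

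The members span a wide range of levels in the poly(A) RNA. In siCtrl, STMN2 was highest at 631 TPM, followed by SOD1 at 257 TPM, VCP at 141 TPM and GRN at 107 TPM. MATR3 reached 75.9 TPM over its 2 IDs and TARDBP 39.6 TPM. TBK1, C9orf72 and OPTN were low, with 6.14, 3.70 and 2.35 TPM. The median of genes above 1 TPM in any library was 10.7 TPM in siCtrl, so 6 genes lay above it and C9orf72, OPTN and TBK1 below it. A lower TPM from fewer cells of a kind and one from less RNA per cell cannot be told apart in such bulk samples. With 1 library per condition there is no spread between replicates, and no p-value is given for any comparison of TPM.

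**Figure D1:**
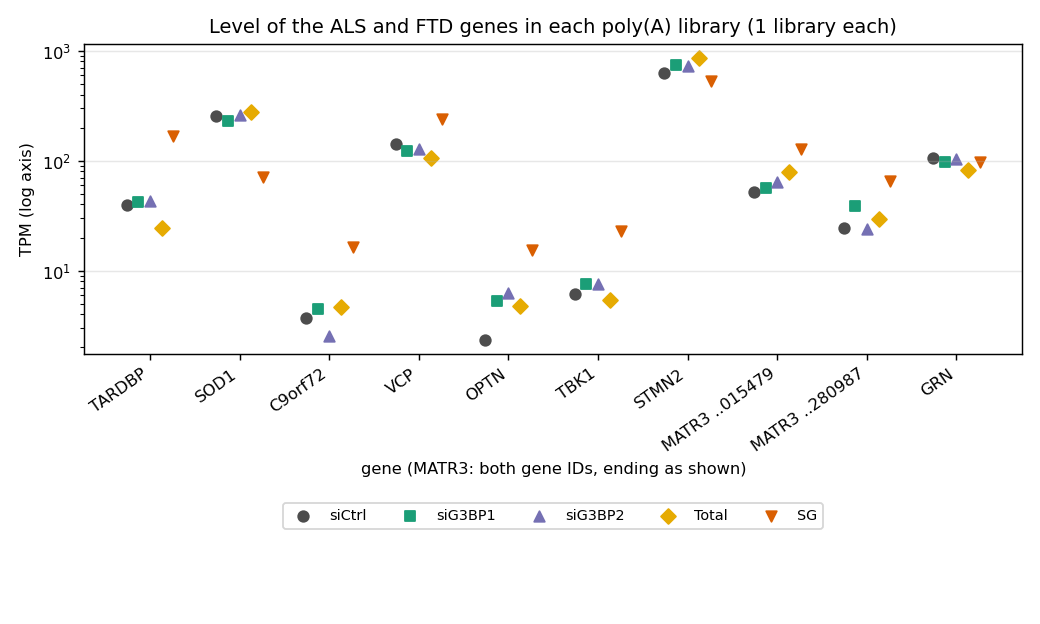
TPM of each member row (x axis) on a log axis in the 5 poly(A) libraries, 1 point per library. STMN2 and SOD1 sit above the others outside SG, and the SG point is the lowest of the 5 for both. For TARDBP, C9orf72, VCP, OPTN, TBK1 and both MATR3 rows the SG point is the highest.

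The SG and Total libraries ask which RNAs are held in SG cores. With the study's thresholds, a gene is SG-enriched when the fold between SG and Total exceeds 2 with over 1 TPM in SG, SG-depleted when it is under 0.5 with over 1 TPM in Total, and otherwise Neither, with very low genes left out. The fold used here is that of TPM + 1, a pseudocount the study's methods do not state. TARDBP, C9orf72, VCP, OPTN, TBK1 and MATR3 ENSG00000280987 met the rule for SG-enriched, which makes 6 of 10 rows, against 62.9% of all 13560 classified genes. SOD1 alone met the rule for SG-depleted, 1 of 10 rows, against 9.45% of all. STMN2, GRN and MATR3 ENSG00000015479 were in neither class. The share of SG-enriched members was thus close to that of all genes, and the median fold was 2.23 over the 10 rows and 2.86 over all classified genes.

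TARDBP had the largest fold. Its level was 24.2 TPM in Total and 166 in SG, a fold of 6.62, which is at the 74.4th percentile of all classified genes. The median fold of the 1514 genes with a canonical transcript within 10% of its length was 4.29, and TARDBP lay at their 70.1st percentile. Its fold therefore stood in the upper part of its length class but well inside it.

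TBK1, OPTN and C9orf72, low in the lysate, were all higher in SG. TBK1, a kinase that phosphorylates OPTN, went from 5.38 TPM in Total to 22.7 TPM in SG, a fold of 3.72. OPTN, an autophagy receptor for ubiquitinated cargo, had 4.73 and 15.5 TPM, a fold of 2.88. C9orf72, whose protein forms a complex with SMCR8 and WDR41, had 4.61 and 16.4 TPM, a fold of 3.10. The medians at like length were 2.66 for TBK1, 3.25 for OPTN and 2.94 for C9orf72, so each of the 3 was within 1.5 times the median of its length class.

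VCP and MATR3 lay lower than their length class. VCP, an ATPase that extracts ubiquitinated proteins, was 105 TPM in the lysate and 237 TPM in the cores, a fold of 2.25, against a median of 3.55 at its length. MATR3 ENSG00000015479 was 79.4 TPM in the lysate and 127 TPM in the cores, a fold of 1.59, and stood at the 5.85th percentile of 1385 genes of like length, whose median was 5.70. MATR3 ENSG00000280987 was 29.3 and 65.9 TPM, a fold of 2.21 against a median of 6.83, at the 10.8th percentile. With both IDs summed, MATR3 was 108.7 and 193 TPM, a fold of 1.77, which meets neither rule.

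SOD1, STMN2 and GRN, the 3 members with the shortest canonical transcripts, had the lowest folds. SOD1 was 279 TPM in the lysate and 70.8 TPM in the cores, a fold of 0.257. The median at its length was 0.431, and SOD1 lay at the 27.7th percentile of 332 such genes. STMN2 was 859.8 TPM in the lysate and 529 TPM in the cores, a fold of 0.616 against a median of 1.28. GRN was 81.6 and 97.5 TPM, a fold of 1.19 against a median of 1.58.

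**Figure D2:**
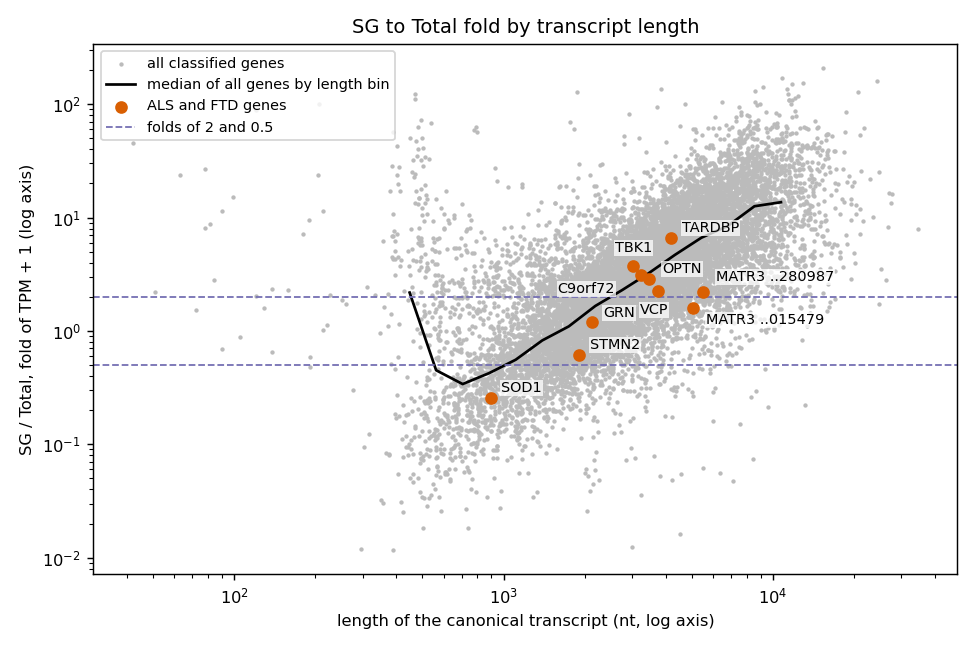
Fold of TPM + 1 between SG and Total against the length of the canonical transcript, both on log axes, for all classified genes (grey), with the median by length bin (black line) and the member rows (orange). SOD1 at 895 nt has a fold of 0.257 and TARDBP at 4185 nt one of 6.62, and both MATR3 rows lie below the line.

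TPM is relative within a library, and the SG library as a whole lay higher over protein-coding genes. The ratio of SG to Total had a median of 2.78 over 10958 genes above 1 TPM in both. Relative to that median, TARDBP was 2.47 times, TBK1 1.52 times, C9orf72 1.28 times and OPTN 1.18 times the typical gene. VCP and MATR3 ENSG00000280987 were both below it, at 0.815 and 0.811 times, MATR3 ENSG00000015479 at 0.577, GRN at 0.430, STMN2 at 0.222 and SOD1 at 0.0916. With this median set to 1, the classes of all genes went from 8528 SG-enriched and 1282 SG-depleted to 4505 and 3271. Of the members, TARDBP alone stayed SG-enriched, SOD1, STMN2 and GRN were SG-depleted, and the log2 fold turned from above to below 0 for VCP, GRN and both MATR3 rows, to -0.29 for VCP, -1.19 for GRN, -0.78 for MATR3 ENSG00000015479 and -0.29 for MATR3 ENSG00000280987.

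The partners of these genes ranged more widely. Of 65 listed genes in 6 groups, 64 had a row and 60 could be classified, of which 26 were SG-enriched, 6 SG-depleted and 28 Neither, with a median fold of 1.74. That is 43.3% SG-enriched and 10.0% SG-depleted, where all classified genes had 62.9% and 9.45%. Among 24 classified genes of other ALS and FTD loci, 13 were SG-enriched and 3 SG-depleted, with a median of 3.49. The largest folds there belonged to KIF5A, a kinesin motor, at 0.631 TPM in Total against 46.8 TPM in SG, and UNC13A, a synaptic vesicle priming factor, at 1.46 against 60.7 TPM. The smallest belonged to PFN1, the actin-binding profilin, with 1393 and 284 TPM, and CHCHD10, a mitochondrial protein, with 26.4 and 5.89 TPM. The canonical transcripts of KIF5A and UNC13A have 5779 and 9985 nt, and those of PFN1 and CHCHD10 have 807 and 700 nt.

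Among the C9orf72 complex and TBK1 partners, 4 of 8 were SG-enriched and none SG-depleted, with SMCR8 at a fold of 18 and the adaptor TANK at 5.44, while WDR41 had 1.59 and the autophagy receptor CALCOCO2 1.64. Among 15 VCP cofactors, 6 were SG-enriched and 2 SG-depleted. UBXN7 had a fold of 24.4 and the deubiquitinase ATXN3 one of 7.32, whereas UFD1, the core cofactor of VCP, had 0.210 and UBXN1 0.364. Among 9 progranulin and lysosome partners, 3 were SG-enriched and none SG-depleted. SORT1, the sortilin receptor that takes up progranulin, had 7.45 and LAMP2 2.90, and the lysosomal protease CTSD had 0.594 and LAMP1 0.875. Of the stathmins, STMN1 had a fold of 0.367 and was SG-depleted, and STMN3 and STMN4 had 0.627 and 0.704, so all 3 had a fold below 1, as had STMN2. CCS, the copper chaperone of SOD1, had 0.697.

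The knockdown libraries ask whether loss of G3BP1 or G3BP2 alters the steady level of these RNAs. A gene was called when its TPM ratio to siCtrl exceeded 2 or was under 0.5 with over 1 TPM in the higher library. OPTN alone was called, and it was higher in both knockdowns. After siG3BP1, 1 of 10 rows was called higher, against 2.53% of 12280 genes, and none lower, against 3.69%. After siG3BP2, 1 of 10 rows was called higher, against 2.43% of 12229 genes, and none lower, against 5.62%. Both comparisons share the siCtrl library.

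OPTN was 2.35 TPM in siCtrl, 5.34 TPM after siG3BP1 and 6.19 TPM after siG3BP2. These are ratios of 2.27 and 2.63, both above the 99th percentile of genes with over 1 TPM in each library (99.2 and 99.4). Its level in Total, a library not treated with siRNA, was 4.73 TPM, also 2.01 times siCtrl, and the siCtrl value is the lowest of the 5. By the study's methods, Total is the supernatant of a lysate of AS-treated cells. It therefore differed from siCtrl in AS and in preparation as well as in siRNA. Whether the siCtrl value is itself unusually low was not tested. On the ratio of TPM + 1 the call was lost after siG3BP1, and with a minimum of 10 TPM it was lost in both.

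The other members stayed within the thresholds. MATR3 ENSG00000280987 had 24.3 TPM in siCtrl, 38.5 TPM after siG3BP1 and 24.0 TPM after siG3BP2. The ratio after siG3BP1 was 1.58, and 1.25 with both MATR3 IDs summed. C9orf72 had 3.70, 4.43 and 2.52 TPM in the same order, with ratios of 1.2 and 0.681 on opposite sides of siCtrl. TBK1 had 6.14, 7.59 and 7.57 TPM, with ratios of 1.24 and 1.23.

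STMN2 had 631, 741 and 728 TPM, with ratios of 1.17 and 1.15. TARDBP had 39.6, 42.2 and 43.0 TPM, with ratios of 1.07 and 1.09. SOD1 had 257, 232 and 261 TPM, with ratios of 0.900 and 1.01. VCP had ratios of 0.879 and 0.913 and GRN of 0.906 and 0.972. MATR3 ENSG00000015479 had ratios of 1.09 and 1.25. The median ratio of all genes above 1 TPM in both libraries was 0.941 after siG3BP1 and 0.919 after siG3BP2, and the medians of the 10 rows were 1.13 and 1.05.

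**Figure D3:**
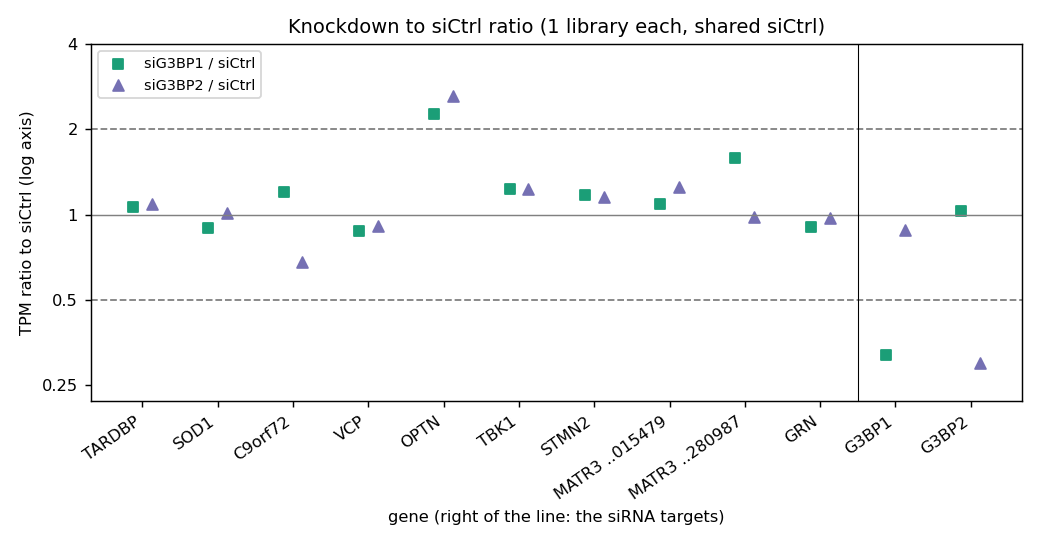
TPM ratio of siG3BP1 (squares) and siG3BP2 (triangles) to the shared siCtrl library on a log axis, for the member rows and, right of the line, the siRNA targets. OPTN lies above the dashed line at 2 in both, and G3BP1 and G3BP2 lie below that at 0.5 in their own knockdown, at 0.320 and 0.299.

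Of the 60 partner genes tested in each knockdown, SPG11, an autophagy and lysosome gene, was called higher after siG3BP1 with 3.59 and 7.94 TPM. ATXN3 was called lower after both, with 3.69 TPM in siCtrl, 0.512 TPM after siG3BP1 and 0.632 TPM after siG3BP2. CHCHD10 was called lower after siG3BP2, with 76.9 and 35.6 TPM. No C9orf72 complex, TBK1, progranulin, SOD1 or stathmin partner was called.

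The pattern of each member over the 5 poly(A) libraries was set beside that of 10756 other genes above 10 TPM in at least 1 library, by the Euclidean distance of the centred log2(TPM + 1) values. The nearest gene was TMEM41A for TARDBP (distance 0.0906), MRPL9 for SOD1 (0.0815), IFIT5 for C9orf72 (0.158), HOXD8 for VCP (0.0480) and KDM8 for OPTN (0.225). It was BCL10 for TBK1 (0.0863), CDC123 for STMN2 (0.104), SGTA for GRN (0.0634), and DNAJC21 and ADGRE5 for the first and second MATR3 ID (0.116 and 0.151). OPTN had the most distant nearest gene. KDM8, picked for its nearness to OPTN over these same libraries, had 1.75 TPM in siCtrl, 4.0 TPM after siG3BP1 and 4.33 TPM after siG3BP2. Between members, TARDBP and TBK1 were closest, at 0.602.

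The rRNA-depleted libraries ask how AS for 1 h shifts the total level of each transcript, SGs included. The values per transcript are RPKM, reads per kilobase of transcript scaled to the reads of the library, and they came out as whole reads of 13291959 in the untreated and 11281587 in the AS library. The reads summed over transcripts exceed these totals, at 23301040 and 23353992, so transcripts of a gene share reads and are not independent. Of 231 member transcripts, 194 were above 1 RPKM in at least 1 library. With the thresholds of 2 and 0.5, 17 of them were higher after AS, against 6.84% of 100705 transcripts, and none was lower, against 2.01%. Of the 17, 13 belonged to TBK1, 3 to OPTN and 1 to MATR3 ENSG00000280987. With the median ratio of all transcripts set to 1, 7 member transcripts were higher and 1 lower, and the counts over all transcripts went from 6891 higher and 2029 lower to 3255 and 3392.

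TBK1 was the member with the largest shift at a well-covered transcript. The canonical TBK1 transcript had 4.63 RPKM from 186 reads in untreated cells and 8.83 RPKM from 301 reads after AS. The ratio was 1.91 (95% exact binomial interval 1.58 to 2.30), which is at the 97.4th percentile of 9662 canonical transcripts above 1 RPKM in both libraries. This interval and those that follow cover counting error only, treat reads as independent molecules and say nothing about the spread between cultures. Over the 49 TBK1 transcripts above 1 RPKM in both, the median ratio was 1.90 (range 0.898 to 2.69), and 48 of them exceeded the median of all transcripts, 1.19. Relative to that median its ratio was 1.60 (1.33 to 1.93).

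The 13 called TBK1 transcripts had ratios between 2.02 and 2.69, and 12 of them had at most 43 reads in either library. The best covered, ENST00000677499, is annotated as a target of nonsense-mediated decay and had 168 and 289 reads, a ratio of 2.03 (1.67 to 2.47). The protein-coding TBK1 transcripts had a median ratio of 1.90 over 14 and those annotated for nonsense-mediated decay 1.95 over 22. The 11 transcripts with a retained intron had 1.83. Summed over transcripts, the TBK1 value was 162 and 305 RPKM, a ratio of 1.88, so the gene as a whole was not called.

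The calls for OPTN and MATR3 rest on few reads. ENST00000424614 of OPTN had 1 read in untreated cells and 10 after AS, a ratio of 11.8 (1.68 to 511). ENST00000487935 had 1 and 8 reads, a ratio of 9.43 (1.26 to 418), and ENST00000482140 had 5 and 11, a ratio of 2.59 (0.830 to 9.52). The canonical OPTN transcript had 34 reads in untreated cells and 38 after AS, a ratio of 1.32 (0.807 to 2.16). ENST00000512107 of MATR3 had 4 and 10 reads. The canonical MATR3 transcripts had 2424 and 2425 reads in untreated cells, and each had a ratio of 1.25 (1.18 to 1.32). The interval of the canonical OPTN transcript includes both 1 and the TBK1 ratio, so at this depth these cannot be told apart.

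By point estimate C9orf72 lay above the ratio of the typical transcript, 1.19, and STMN2, VCP and SOD1 near it. The canonical C9orf72 transcript had 118 and 144 reads, 2.75 and 3.95 RPKM, a ratio of 1.44 (1.12 to 1.85), at the 81.0th percentile. Relative to the typical transcript it was 1.21 (0.941 to 1.55), an interval that includes no difference. The C9orf72 transcript with the highest mean value, ENST00000379995, had a ratio of 1.25 (0.837 to 1.86). The canonical STMN2 transcript, with 175 and 208 RPKM from 4436 and 4461 reads, had a ratio of 1.18 (1.14 to 1.24). The canonical VCP transcript had 23.5 and 26.8 RPKM, a ratio of 1.14 (1.05 to 1.24), and that of SOD1 had 38.8 and 44.2 RPKM, likewise a ratio of 1.14 (0.996 to 1.3).

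By the canonical transcript, TARDBP and GRN were lowest. The canonical TARDBP transcript had 24.9 and 27.1 RPKM from 1384 and 1278 reads, a ratio of 1.09 (1.01 to 1.17), and relative to the typical transcript 0.914 (0.847 to 0.987). The TARDBP transcript with the highest mean value, ENST00000639083, had 898 and 896 reads, a ratio of 1.18 (1.07 to 1.29). Relative to the typical transcript that was 0.988 (0.900 to 1.085). Over the 34 TARDBP transcripts above 1 RPKM in both libraries the median ratio was 1.12. The canonical GRN transcript had 14.1 and 13.2 RPKM from 399 and 316 reads, a ratio of 0.933 (0.803 to 1.08), which was 0.784 (0.674 to 0.911) of the typical transcript and at the 6.47th percentile. Over the 19 GRN transcripts above 1 RPKM in both libraries the median ratio was 1.18, near the typical transcript. The interval of the canonical GRN transcript includes no difference on the deposited scale but not on the scale relative to the typical transcript.

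**Figure D4:**
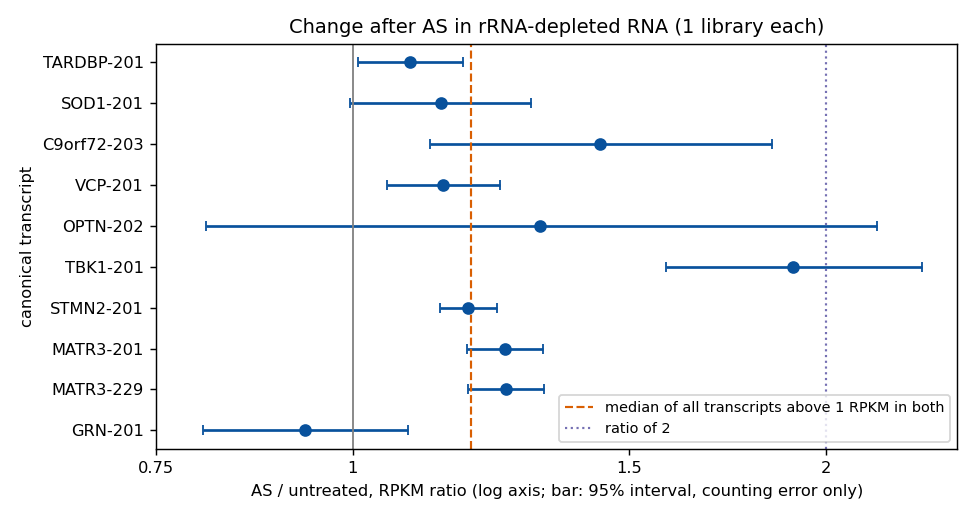
Ratio of AS to untreated RPKM for the canonical transcript of each member (points, log axis) with 95% intervals for counting error, beside the median of all transcripts (dashed, 1.19) and a ratio of 2 (dotted). TBK1 has the highest ratio, 1.91, its interval overlaps those of OPTN and C9orf72, and OPTN has the widest interval.

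Of the canonical transcripts of the partner genes, none was called in either direction. The share of all canonical transcripts called was not counted. The median ratio was 1.13 over 21 other ALS and FTD genes and 1.43 over 6 C9orf72 complex and TBK1 partners. It was 1.23 over 15 VCP cofactors, 1.12 over 8 progranulin and lysosome partners, 1.54 over 2 SOD1 partners and 1.24 over 2 stathmins. Over the 9662 canonical transcripts above 1 RPKM in both libraries it was 1.22.

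The eCLIP libraries ask which RNAs G3BP1 and G3BP2 touch, before and after stress. The deposited values are log10(number + 1) per gene, with whole numbers that are not scaled between libraries, and the sources used here do not say which processing steps the number includes. The number sums to between 4268911 and 26179736 per library, and in all 4 groups replicate 2 is the smaller. All 10 member rows were above 0 in both AS replicates of each protein. In untreated cells 9 of 10 were, and SOD1 was the exception for both proteins. Most genes were detected, since 17237 and 18032 of all 19942 rows were above 0 in both AS replicates of G3BP1 and G3BP2, and 17774 and 18318 in both untreated ones.

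SOD1 was almost without eCLIP value in untreated cells and had one in every AS library. For G3BP1 it was 0.85 and 0.00 in the untreated replicates and 1.83 and 1.11 after AS. For G3BP2 it was 0.00 and 0.00 in the untreated replicates and 1.91 and 1.11 after AS. As numbers these are 6 and 0 against 67 and 12, and 0 and 0 against 80 and 12. All 4 AS libraries lay above all 4 untreated ones.

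The difference did not pass the test over all genes. In the G3BP2 fit, SOD1 met the filter of at least 2 libraries above 0 only through its AS libraries. That filter was therefore not blind to the change after AS. For G3BP2 the SOD1 difference after AS was 1.51 on the log10 scale (SE 0.435, limma adjusted p = 0.713), and for G3BP1 1.05 (SE 0.595, limma adjusted p = 1). In a fit of all 8 libraries with protein as a covariate, added after the data were seen, it was 1.28 (SE 0.312, limma adjusted p = 0.0639). That fit takes the libraries of the 2 proteins as independent, which they may not be. Over the other settings of this fit the limma adjusted p lay between 0.00720 and 0.864, and 6 of 13 were under 0.05, among them the fit with the replicate number as a block (limma adjusted p = 0.0327). As CPM, the number scaled to each library's total, SOD1 was 0.25 and 0 for untreated G3BP1 against 2.95 and 2.81 after AS, and 0 and 0 for untreated G3BP2 against 3.07 and 1.57.

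VCP was the other member whose AS libraries all lay above the untreated ones. For G3BP1 it was 2.13 and 2.17 in untreated cells and 2.36 and 2.37 after AS. For G3BP2 it was 1.92 and 1.23 in untreated cells and 2.60 and 2.18 after AS. The gap between the highest untreated and the lowest AS value was 0.01, so the groups only just did not overlap. The difference was 0.215 for G3BP1 (SE 0.610) and 0.815 for G3BP2 (SE 0.426), with limma adjusted p = 1 for both. As CPM, VCP was 5.59 and 21.6 against 10.1 and 54.6 for G3BP1, which overlap, and 3.13 and 1.5 against 15.2 and 19.6 for G3BP2, which do not.

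SOD1 and VCP make 2 of 10 member rows with all AS libraries above all untreated ones, against 0.260% of 19259 rows. SOD1 met the filter of this count chiefly through its AS libraries. On the deposited scale no member had all AS libraries below, against 0.535% of rows. As CPM, a scaling of this count added after the data were seen, SOD1 alone had all AS libraries above, against 2.62% of rows, and C9orf72 alone had all below, against 2.91%. In rRNA-depleted RNA, at 1 library per condition, the canonical SOD1 and VCP transcripts had ratios of 1.14 after AS, near the typical transcript. The part of RNA level in these eCLIP values was not tested.

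**Figure D5:**
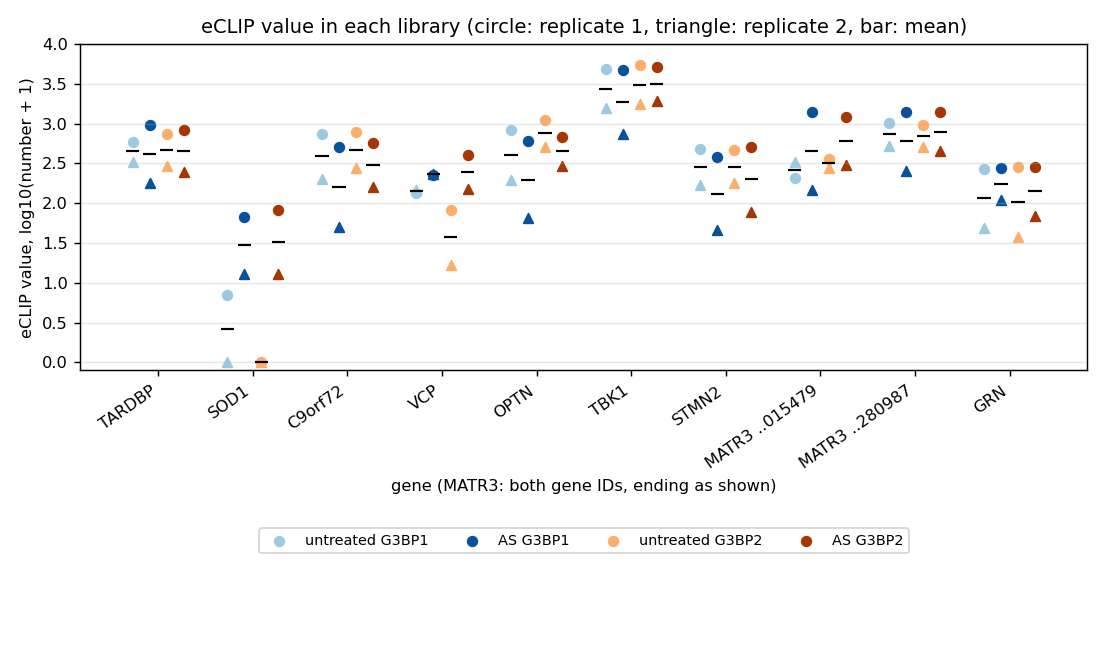
eCLIP value, log10(number + 1), of each member row in the 8 libraries, with replicate 1 as circles, replicate 2 as triangles and group means as bars. SOD1 is at 0 in 3 of 4 untreated libraries and between 1.11 and 1.91 after AS, TBK1 is the highest member in every library, and replicate 2 lies below replicate 1 for most rows.

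On the deposited scale, the first MATR3 row differed between replicate numbers. ENSG00000015479 was 2.32 and 2.52 for G3BP1 in untreated cells and 3.14 and 2.17 after AS, and 2.55 and 2.44 for G3BP2 in untreated cells and 3.08 and 2.48 after AS. Replicate 1 was thus higher after AS for both proteins, and replicate 2 lower for G3BP1 and close to its untreated value for G3BP2. The mean difference on this unscaled measure was 0.235 (SE 0.596) for G3BP1 and 0.285 (SE 0.424) for G3BP2. As CPM, ENSG00000015479 was 8.67 and 48.6 in untreated cells against 60.8 and 34.4 after AS for G3BP1. For G3BP2 it was 13.5 and 25.7 against 46.1 and 39.3 CPM, higher after AS in both replicates. ENSG00000280987 was 3.01 and 2.72, then 3.15 and 2.41, for G3BP1, and 2.98 and 2.71, then 3.14 and 2.65, for G3BP2. As CPM this row was 42.6 and 77.2, then 62.3 and 60.0, for G3BP1, and 36.4 and 47.9, then 52.9 and 58.2, for G3BP2.

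TBK1 had the highest values, 3.44 ± 0.346 (SD, n = 2) in untreated and 3.27 ± 0.566 (SD, n = 2) in AS-treated cells for G3BP1, and 3.49 ± 0.339 (SD, n = 2) and 3.5 ± 0.304 (SD, n = 2) for G3BP2. TARDBP had 2.65 ± 0.177 and 2.62 ± 0.516 (SD, n = 2 each) for G3BP1 and 2.67 ± 0.283 and 2.66 ± 0.375 (SD, n = 2 each) for G3BP2. On this unscaled measure, the spread between duplicates exceeded the difference after AS for both genes and both proteins. As CPM, TARDBP was 24.5 and 48.6 in untreated cells against 42.1 and 41.5 after AS for G3BP1. For G3BP2 it was 28.3 and 27.5 against 31.9 and 31.8 CPM, where the duplicates lay closer than the groups. TBK1 was 200 and 228 against 206 and 173 CPM for G3BP1, and 205 and 166 against 197 and 248 for G3BP2, which overlap.

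C9orf72, OPTN and STMN2 had lower means after AS for both proteins, each by less than the SE of the limma fit. C9orf72 went from 2.59 to 2.21 for G3BP1 and from 2.67 to 2.48 for G3BP2, OPTN from 2.60 to 2.29 and from 2.88 to 2.65, and STMN2 from 2.46 to 2.12 and from 2.46 to 2.30. GRN had means of 2.06 and 2.24 for G3BP1 and 2.01 and 2.15 for G3BP2. In all 4 genes the untreated and AS libraries overlapped on the deposited scale. As CPM some groups did not, but the share of all genes with such groups within a single protein was not counted. TARDBP and both MATR3 rows, given above, went the other way for G3BP2, with higher CPM after AS. C9orf72 was 30.9 and 29.9 in untreated cells and 22.6 and 11.5 after AS for G3BP1, and 30.3 and 25.7 against 22 and 21 for G3BP2, so both proteins gave lower values after AS. OPTN was 34.6 and 28.6 against 26.5 and 15.0 for G3BP1, and 41.8 and 47.9 against 25.9 and 38.4 for G3BP2, also lower. For G3BP1, STMN2 was 19.9 and 24.9 against 16.7 and 10.5, and GRN 11.2 and 7.07 against 12.1 and 25.5. For G3BP2 both overlapped, with STMN2 at 17.8 and 17.0 against 19.6 and 10.0, and GRN at 10.7 and 3.37 against 11.0 and 8.87. With scaling, the change over both proteins was -0.194 on the log10 scale for C9orf72 (SE 0.0705, limma adjusted p = 0.591) and -0.175 for OPTN (SE 0.0652, limma adjusted p = 0.609).

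In limma, with p-values adjusted after Benjamini and Hochberg and a threshold of 0.05, no member row passed for the change after AS of G3BP1, against 0% of 18888 genes (16 higher and 30 lower at an unadjusted p under 0.05), or of G3BP2, against 0.0105% of 19035 genes (70 and 89). These unadjusted counts are far below a share of 0.05 of the genes tested. The values are unscaled and depth differs between replicates, which widens the spread, so few genes could pass. Scaled to the same total, the counts were 253 and 232 for G3BP1 and 330 and 304 for G3BP2. No member row passed for the difference in the change after AS between the proteins, against 0% of 19259 genes (22 higher and 26 lower at an unadjusted p under 0.05), nor for G3BP2 against G3BP1, against 0% of 19259 genes (136 and 14). With the replicate number as a block, the unadjusted counts for G3BP2 against G3BP1 were 2955 higher and 31 lower. With the block and scaling to the same total they were 311 and 317. No gene passed after adjustment in either. The median change after AS over all genes was -0.115 for G3BP1 and -0.075 for G3BP2 on the log10 scale, and about 0 once libraries were scaled to the same total, under which no member passed either. In the added fit of both proteins 0 member rows passed, against 0.0571% of 19259. The largest difference between the proteins was 0.313 for OPTN, higher with G3BP2 (SE 0.278, limma adjusted p = 0.955). Among the partner genes 62 were tested over all 8 libraries and 61 for each protein, and none passed any of these limma tests or had an unadjusted p under 0.05.

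The eCLIP number moves with the size of the gene, so levels between genes were compared per kb. Per kb of genomic span, TBK1 was between 8.0 and 12 times the median gene of the same library, at or above the 98.8th percentile in all 8 libraries, and TARDBP between 3.32 and 6.72 times. SOD1 was below the median gene in every library, at most 0.835 times. STMN2 was between 0.441 and 1.14 times, but per kb of its longest transcript between 1.45 and 3.75 times, above the median gene in all 8 libraries. GRN ranged from 1.03 to 8.35 times and VCP from 0.192 to 7.48 times.

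The place of TBK1 depended on the measure of length. Per kb of its longest transcript it was between 7.91 and 11.5 times the median gene, about as by gene span. TBK1 has 71 annotated transcripts, whose genomic spans sum to 1556 kb, against 50.0 kb for the gene. Per kb of that summed span, a measure added after the data were seen, TBK1 was between 0.776 and 1.19 times the median gene and TARDBP between 0.674 and 1.44 times. Across genes the log10 number had a Pearson correlation of 0.856 with the log10 gene span and of 0.918 with the log10 summed span in untreated G3BP1 replicate 1, over genes above 0. These points share the library and the annotation, and genes are not independent replicates. SOD1 and MATR3 ENSG00000015479 were below the median gene on the summed span in all 8 libraries, at most 0.624 and 0.762 times.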

How the data were processed

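Values came from 15 libraries of SH-SY5Y cells, grouped by GEO's labels. The members and the lists of partner genes were chosen with earlier results of these data known. For eCLIP, the authors used fastp, STAR, CLIPper and SMInput normalization, and deposited log10 values of a whole number plus 1. For poly(A) RNA-seq, the authors ran HISAT2 (2.1.0 in the submitters' processing notes) and StringTie, and deposited TPM. The rRNA-depleted table, deposited under a TPM header, holds RPKM: value times transcript length gave whole reads within 0.05 for at least 99.999% of low values, and the columns sum to 1039719 and 1216810. The comparison by ratio, chosen before the unit was known, was kept.

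IDs were matched to GENCODE release 44 (the authors used 41) on GRCh38, with 19910 of 19942 rows and 227363 of 256980 transcripts found. Overlapping genes can share reads. The eCLIP test was limma (version 3.58.1, R 4.3.3; intensity trend, Benjamini-Hochberg, rows above 0 in at least 2 libraries of the fit). TPM and RPKM comparisons have 1 library per condition and use fold rules without a test, with a pseudocount of 1 for SG. Read ratios carry exact conditional binomial 95% intervals (scipy 1.17.1, Python 3.11.15). Scripts were tested on simulated data. TPM keeps no depth. Named genes were the 9 members, up to 4 genes per list (the 2 largest and 2 smallest SG folds above 10 TPM), those called and the nearest gene in pattern. Transcripts described were the canonical and the called ones. A highest-mean transcript that was neither is given for TARDBP and C9orf72 only. Proteins, SMInput and peak positions were not analysed here. A search of the transcripts for a sequence motif is not reported here.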

Additional observations from a re-analysis of the deposited data

How the results depend on the processing

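No member passed the 4 eCLIP comparisons under any setting, the replicate block included (0 in each, with the block and each library left out), although SOD1 could not be tested where values above 0 were required in every library, nor for G3BP2 without either AS replicate. The block was not used as pairing, because the labels state no shared batch. Differences between same-numbered replicates correlated across genes at 0.555 (untreated) and 0.501 (AS) between G3BP1 and G3BP2 within a treatment. Between groups of unlike treatment the correlation was 0.124 to 0.194. Same-numbered libraries of the 2 proteins may therefore not be independent. In the added fit of both proteins, 1 member (SOD1) passed with the replicate block (adjusted p = 0.0327), with the block and scaling (0.0375), with no filter (0.0345) and with no intensity trend (0.0162), and between 0 and 1 with single libraries left out. It passed without untreated G3BP1 replicate 1 (0.0399) and without AS G3BP1 replicate 2 (0.00720), and reached 0.864 without AS G3BP2 replicate 1. For SG, folds of 4 and 0.25 left 1 SG-enriched and 0 SG-depleted rows, and setting the median ratio to 1 left 1 and 3, with log2 folds of -0.29 for VCP, -0.29 for MATR3 ENSG00000280987, -0.78 for MATR3 ENSG00000015479 and -1.19 for GRN. With the same sum of protein-coding TPM, 4 rows were SG-enriched, without VCP and MATR3 ENSG00000280987. After siG3BP1, 0 rows were higher by TPM + 1 or at 10 TPM and 2 at a ratio of 1.5. After siG3BP2, 0 were at 10 TPM. Of member transcripts, 3 were higher by value + 1, 59 at a ratio of 1.5, 7 with the median ratio set to 1, and 0 at a minimum of 10 or summed per gene. Lower were 2 at 1.5, 1 with the median set to 1 and 3 with no minimum. Rows below the median eCLIP number per kb in all libraries were 1 by gene span, 2 by summed span, and 1 to 2 with a replicate left out. The cause of these shifts was not tested.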
